A study of Mus musculus with 75 samples.

Results

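In stimulated CD4 T cells given HHT for 10 min before harvest, some mRNAs still held a higher share of polysomal than of subpolysomal counts. Those that also did so without HHT are described here. They were chosen by measured values: a gene had to reach a CPM (its count divided by the library's total, times 1e+06) of 30 in all 14 polysomal (Pol) and subpolysomal (SubPol) libraries of stimulated and HHT-treated cells. It also had to have a log2 ratio of Pol CPM over SubPol CPM of at least 0.5 in each of 4 stimulated mice and each of 3 HHT-treated mice. Of 53465 genes in the count table, 5682 met the level, 737 of these were polysomal in every stimulated mouse, and 34 of the 737 were also polysomal in every HHT-treated mouse. The 34 are called the kept mRNAs, and the remaining 703 the genes not kept. Each fraction is scaled to its own total, so how many copies of an mRNA stayed on polysomes was not measured.

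The files give each gene an Ensembl mouse identifier and do not pair it with a symbol or a gene type, and the reference table supplied pairs none of the identifiers with a name. Members are therefore described by their values and their place in an order, with 4 identifiers printed. Markers of CD4 T cells, of regulatory T cells (Tregs) and of other cell types could not be looked up for the same reason.

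A polysome is an mRNA carrying several ribosomes at once, and a sucrose gradient separates it from lighter particles, in which mRNAs carry few ribosomes or none. HHT is not spelled out in the labels; it is the usual abbreviation of homoharringtonine, a drug that stops ribosomes at the start of elongation while ribosomes further along can finish and leave. In background terms, an mRNA that is being translated in the ordinary way is expected to move towards the light fractions during such a run-off. In T cells, translation rises soon after the antigen receptor is engaged, and Tregs restrain the activation of effector T cells.

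All libraries came from CD4 effector T cells (CD4+CD25-) of mouse spleen and lymph nodes. In the gradient assay, which the labels call SPEED, cells of 4 mice of genotype B6.SJL-PtprcaPepcb/BoyJ (given as C57/B6 in the series' design) were untreated, stimulated with anti-CD3/CD28 beads, stimulated with beads in the presence of Tregs, or stimulated with beads and then given HHT. Each condition had Input (unfractionated), Pol and SubPol libraries from each mouse, except for HHT. By the labels HHT had Pol and SubPol from mice 1 to 3 and Input from mice 1 and 3. In the RiboTag assay, 5 mice, offspring of B6.Cg-Tg(Cd4-cre)1Cwi/BfluJ bred with B6N.129-Rpl22tm1.1Psam/J, gave Input and ribosome precipitate (IP) from cells rested in IL7, stimulated with beads, or stimulated with beads and Tregs. Ribosomes carry the tag in cells in which the Cd4 promoter has driven Cre. The Tregs were CD4+YFP+ cells of Foxp3YFP-Cre mice; no step that separates them from effector cells before lysis is given in the sources used here, so SPEED and Input libraries of cocultures can hold Treg RNA. Ages of the mice were not given, and no RiboTag culture received HHT.

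Library totals ran from 1566501 to 4621104 counts in SPEED and from 1658481 to 2824875 in RiboTag. In the 14 libraries of the rule a member had between 60 and 2409 counts, with a median of 372.5, and the lowest member count in any RiboTag library was 9. All 34 members passed the filter on low counts in both assays. The untreated SubPol library of mouse 3 had the fewest genes detected of its group, 12851 against up to 13735, and the counts in untreated cells are also given without it. Leaving it out was not planned and was added after seeing the data. Values are relative to each library's total, so a change in total RNA is not seen, and in these bulk samples fewer cells of a type and less RNA per cell cannot be told apart.

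Of the 737 genes polysomal in every stimulated mouse, 547 (74.2%) reached a ratio of 0.5 in 0 of the 3 HHT mice, 112 in 1, 44 in 2, and 34 (4.61%) in all 3. Seen from the other side, 113 genes had a ratio of at least 0.5 in every HHT mouse, so the kept mRNAs were 30.1% of these, and the other 79 were below 0.5 in at least 1 stimulated mouse. The median ratio of the kept mRNAs was 1.15, 0.85, 1.14 and 0.91 in stimulated mice 1 to 4, and 0.76, 0.67 and 0.83 in HHT mice 1 to 3. The highest HHT median was below the lowest stimulated one, so the median ratio of the members was also lower under HHT. These ratios chose the members and are a description, with no test.

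The genes not kept started from a like position. Their mean of mouse medians in stimulated cells was 0.95 ± 0.07 (SD, n = 4), against 1.01 ± 0.15 for the kept mRNAs, with the kept higher in 2 of 4 mice. Under HHT their mean of mouse medians was 0.10 ± 0.03 (SD, n = 3), against 0.75 ± 0.08 for the kept mRNAs and -0.08 ± 0.01 for all 5682 genes at the level. The rule separates these groups under HHT by construction.

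**Figure D1:**
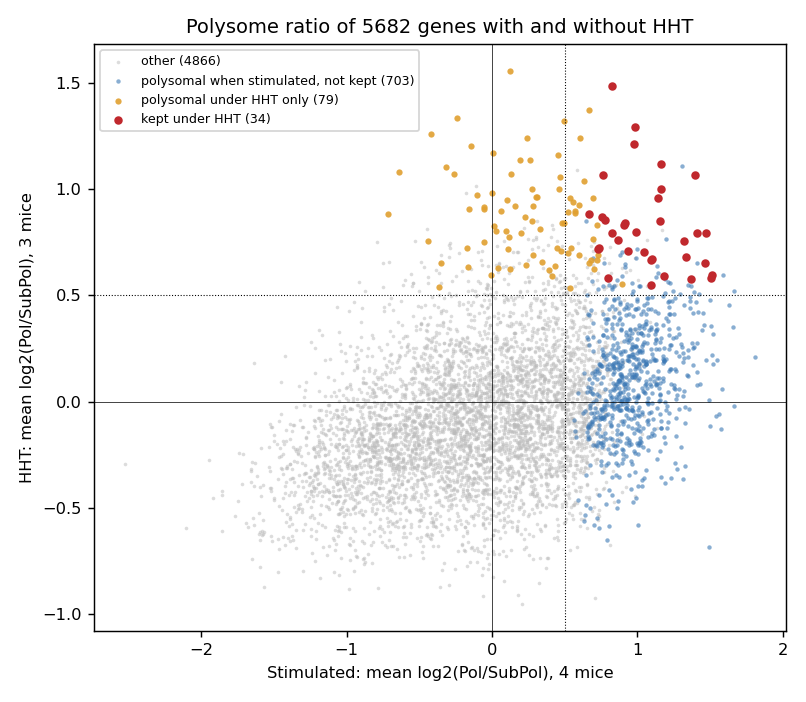
Mean log2(Pol/SubPol) of each of the 5682 genes at the level, in stimulated cells (x axis, 4 mice) and under HHT (y axis, 3 mice); each point is a gene, dotted lines mark 0.5. The means of the 34 kept mRNAs (red) run from 0.55 to 1.49 under HHT and overlap those of the 703 not kept (blue), which run from -0.68 to 1.11 with a median of 0.11, since the rule acts on every mouse and not on the mean, and the 79 polysomal under HHT but not in every stimulated mouse are in orange.

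Per mouse, HHT lowered the ratio of 25, 25 and 23 of the 34 members in mice 1, 2 and 3, with median differences of -0.38, -0.22 and -0.24. For the genes not kept the median differences were -0.87, -0.80 and -0.76. On means over mice, 27 members were lower under HHT and 7 were higher. In 13 of the 34 members every HHT ratio was below every stimulated ratio, where 29.6% of all genes at the level showed this. In 2 members every HHT ratio was above, against 24.9% of all genes at the level. The members had to start at 0.5 or more, while the genes at the level had a median stimulated ratio of 0.004. The shares are thus not a like comparison, and the rule favours few rises among the members. Among the genes not kept, 647 of 703 (92.0%) had every HHT ratio below every stimulated one. By the rule these genes were at or above its ratio threshold in every stimulated mouse and below it in some HHT mouse. The rule therefore favours falls among the genes not kept, and it limits falls among the members. The contrast between these groups, in the median differences and in these shares, is a description, with no test.

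The ratio can change through either fraction. The values below come from the libraries that split kept from not kept, so a higher Pol relative to SubPol under HHT in the kept mRNAs is set by the rule. Between stimulated and HHT-treated cells, the Pol CPM of the kept mRNAs was higher by a median of 0.45 on the log2 scale, higher in 32 of 34, and their SubPol CPM was higher by 0.77, higher in 31. For the genes not kept, the Pol CPM differed by a median of -0.09, higher in 266 of 703, and the SubPol CPM by 0.78, higher in 701. Over all genes at the level the medians were -0.05 in Pol and -0.03 in SubPol. The other 79 genes polysomal in every HHT mouse had a median of 0.55 in Pol, higher in 76, and of 0.007 in SubPol, higher in 40. The higher Pol CPM is therefore not particular to the kept mRNAs.

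As a share of library counts, the 34 kept mRNAs held 0.667 ± 0.062% of Pol and 0.318 ± 0.024% of SubPol counts in stimulated cells (SD, n = 4). Under HHT they held 0.943 ± 0.027% of Pol and 0.550 ± 0.013% of SubPol counts (SD, n = 3). The stimulated and HHT libraries did not overlap in either share: the highest stimulated Pol share was 0.737% and the lowest HHT share 0.919%. The genes not kept held 17.4 ± 0.7% of Pol counts in stimulated cells and 17.2 ± 0.5% under HHT, while their SubPol share went from 8.99 ± 0.52% to 15.6 ± 0.6%. All of these shares rest on libraries that the rule used.

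There was no gap in values at the threshold. The 5 members nearest to it had lowest ratios over the 7 mouse values of 0.5004, 0.503, 0.511, 0.517 and 0.529. The 5 genes just outside had 0.499, 0.491, 0.489, 0.483 and 0.479. The mean HHT ratios of the 5 inside ran from 0.58 to 0.96 and those of the 5 outside from 0.55 to 0.85, so membership at this edge depends on differences smaller than the SD between mice of a typical member, which had a median of 0.14 under HHT and 0.23 in stimulated cells.

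**Figure D2:**
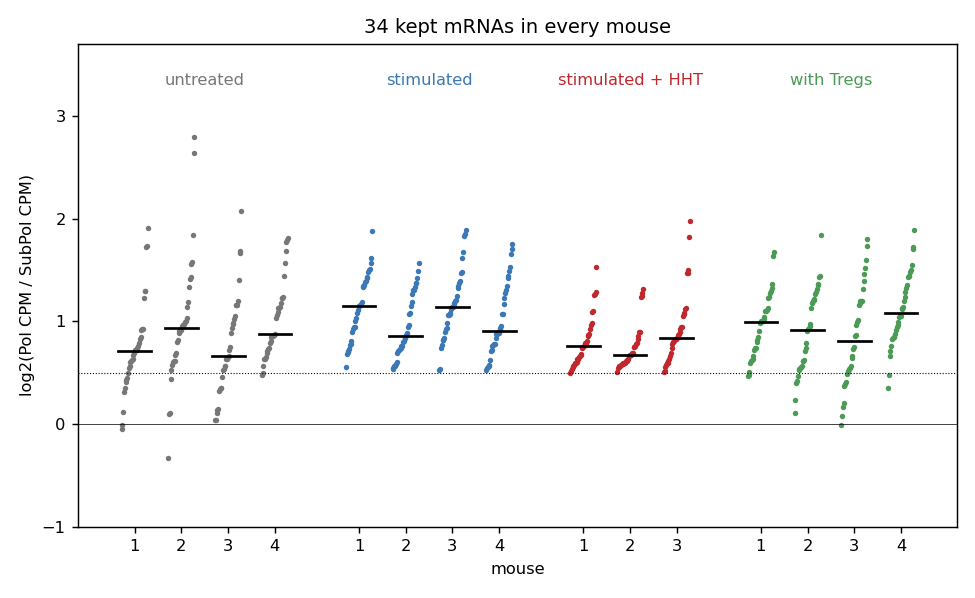
Log2(Pol CPM/SubPol CPM) of the 34 kept mRNAs in every SPEED mouse, one column of points per mouse, ordered by value, with the median as a black bar; the dotted line is the threshold of 0.5. The stimulated and HHT columns start at 0.5 because of the rule, while the untreated and Treg columns reach below it, and the medians of the 3 HHT mice are 0.76, 0.67 and 0.83.

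ENSMUSG00000033499 had the highest ratio under HHT by its lowest mouse. Its Pol CPM was 182, 149, 240.5 and 135 in stimulated mice 1 to 4 and 234, 245 and 283 in HHT mice 1 to 3. Its SubPol CPM was 106, 85.1, 107 and 92.4 in stimulated cells and 98.0, 104 and 72.0 under HHT. The log2 ratios were 0.78, 0.80, 1.17 and 0.54 when stimulated, a mean of 0.83 ± 0.26 (SD, n = 4), and 1.26, 1.23 and 1.97 under HHT, a mean of 1.49 ± 0.42 (SD, n = 3). Every HHT ratio lay above every stimulated one, as in 24.9% of all genes at the level. The HHT value of mouse 3 stood higher than the other 2. This member was picked by its HHT ratios, so their height is a description. The member second in this order had mean ratios of 0.98 ± 0.27 when stimulated and 1.29 ± 0.19 under HHT, with overlap between the mice.

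Next after these by its lowest HHT mouse was ENSMUSG00000022443, whose CPM was higher under HHT in both fractions. Its Pol CPM was 162, 112, 180.4 and 145 in stimulated mice and 374, 363 and 497 under HHT. Its SubPol CPM was 60.2, 75.1, 81.7 and 85.6 in stimulated mice and 154, 150.3 and 235 under HHT. HHT libraries were above all stimulated ones in both fractions, and the ratios overlapped: 1.43, 0.58, 1.14 and 0.76 when stimulated, and 1.28, 1.27 and 1.08 under HHT. At the other end, the member with the largest difference had ratios of 1.51, 1.49, 1.38 and 1.65 when stimulated and of 0.51, 0.50 and 0.74 under HHT, a difference of means of -0.92.

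**Figure D3:**
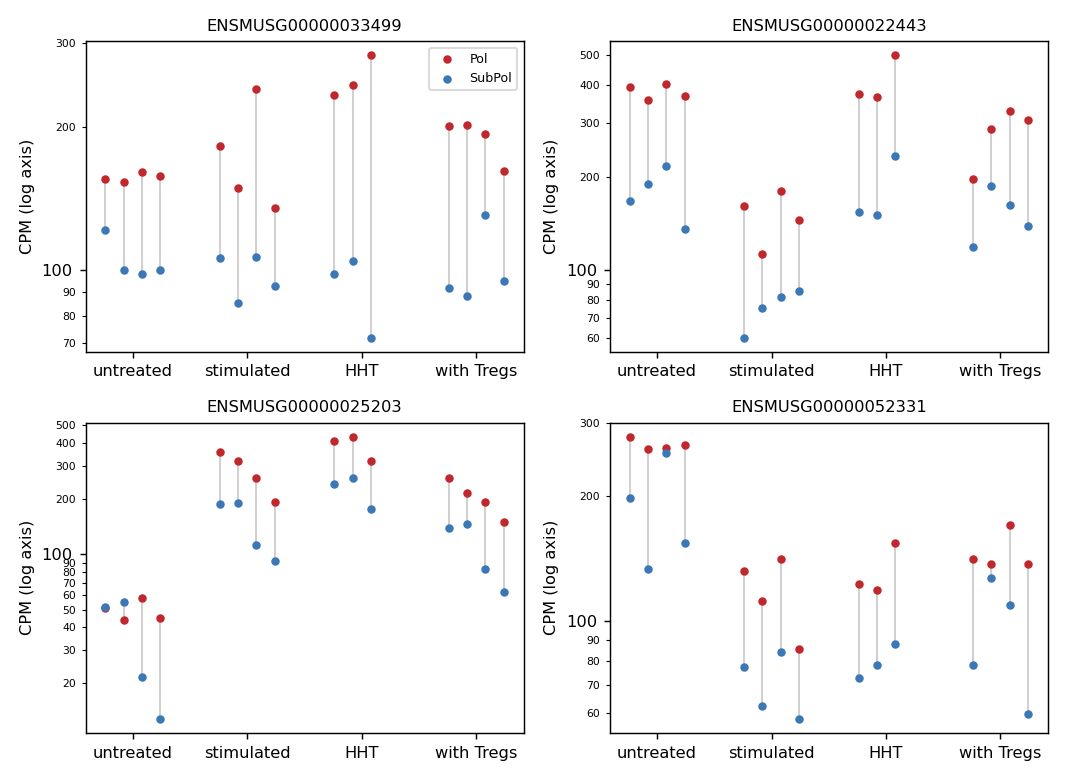
Pol (red) and SubPol (blue) CPM of 4 kept mRNAs on a log axis, with a grey line joining the libraries of a mouse, in mice 1 to 4 (1 to 3 for HHT) from left to right. Pol lies above SubPol in every stimulated and HHT mouse, while ENSMUSG00000025203 has Pol below SubPol in untreated mice 1 and 2.

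Untreated cells and Treg cocultures were not used by the rule, so the polysome ratio could be tested there, in the same 4 mice. In untreated cells 33 of the 34 members had more Pol than SubPol and 0 had less (edgeR's quasi-likelihood test with Benjamini-Hochberg adjustment over 12428 genes, adjusted p under 0.05), where 21.9% of all genes tested were higher and 17.8% lower. Their median log2 difference was 0.92. The genes not kept were close to this, at 637 of 703 higher, 2 lower and a median of 0.82, and so the count is not particular to the kept mRNAs. It was 27 with the untreated groups fitted alone and 31 when the SubPol library of untreated mouse 3 was left out, which gave 594 genes not kept.

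On the ratios themselves, 32 members were above 0 in all 4 untreated mice and 16 (47.1%) were at 0.5 or more in all 4, against 292 (41.5%) of the genes not kept. In mice 1, 2 and 4 alone, 32 members were above 0 and 22 (64.7%) at 0.5 or more in all 3, against 329 (46.8%) of the genes not kept. This split was added after seeing the data, and all of 3 mice is an easier condition than all of 4. The mean of mouse medians was 0.79 ± 0.13 for the kept and 0.70 ± 0.06 for the genes not kept (SD, n = 4), with the kept higher in 3 of 4 mice. ENSMUSG00000025203 was the member that missed the test: its ratios were -0.01, -0.33, 1.40 and 1.79 in untreated mice 1 to 4, 2 at or below 0 and 2 far above. Its edgeR difference was 0.57 ± 0.34 (SE, adjusted p = 0.184), and with the mouse as a block it passed, at 0.68 (adjusted p = 0.0160).

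In Treg cocultures all 34 members had more Pol than SubPol by the same edgeR test, where 22.6% of all genes tested were higher and 21.6% lower. The median difference of the members was 1.05, and their lowest 0.69. Of the genes not kept, 697 of 703 were higher, with a median of 1.02. The ratio was at least 0.5 in all 4 mice in 21 members (61.8%) and in 517 genes not kept (73.5%). Mouse medians of the kept averaged 0.95 ± 0.12 (SD, n = 4), against 0.88 ± 0.11 for the genes not kept.

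Whether the polysome ratio differed between Treg cocultures and untreated cells was tested as an interaction. The cocultures were also stimulated with beads, so stimulation, the Tregs and Treg RNA cannot be told apart in it. By edgeR 0 of 34 members passed in either direction at adjusted p under 0.05, where 0.724% of all genes tested were higher and 0.603% lower. At an unadjusted p under 0.05 there were 9 members (26.5%), against 15.1% of all genes tested and 20.3% of the genes at the level. The genes not kept had 214 (30.4%), so the share is not particular to the members. DESeq2 called 0, and the mouse as a block called 1. The members' differences ran from -0.80 to 0.65 with a median of 0.16, positive in 25, and the genes not kept had a median of 0.22 with 37 higher and 3 lower. When the SubPol library of untreated mouse 3 was left out, 0 members passed, and 59 genes not kept were higher and 1 lower. For ENSMUSG00000033499 the difference was 0.37 with a 95% interval of 0.01 to 0.72 and an adjusted p of 0.336.

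The RiboTag precipitate gave a second view of ribosome association, in other mice. In cells rested in IL7, 2 members had more IP than Input and 1 less by edgeR over 10751 genes, where 3.35% of all genes tested were higher and 3.54% lower. The lower call was lost in 4 of the 5 fits without 1 mouse (mice 2, 3, 4 or 5), while 5 members passed without mouse 1 and 6 in mice 3 to 5 alone. In stimulated cells 1 member was higher and 0 lower, where the background was 0.205% and 0.772%. In Treg cocultures 0 members passed in either direction, against 0.67% higher and 1.18% lower over all genes; 7 members (20.6%) had an unadjusted p under 0.05, against 16.8% of all genes tested and 21.5% of the genes at the level, and DESeq2 and the mouse block each called 1. The call in stimulated cells was absent in all 5 fits that left out 1 mouse.

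The member higher in stimulated cells was also 1 of the 2 higher in IL7-rested cells. Its log2 IP over Input ratios were 0.30, 0.55, 0.54, 0.36 and 0.29 in IL7-rested mice 1 to 5 and 0.57, 0.41, 0.55, 0.07 and 0.12 in stimulated mice 1 to 5. All 10 values were above 0. The edgeR differences were 0.40 ± 0.09 (SE, adjusted p = 0.00335) and 0.37 ± 0.09 (SE, adjusted p = 0.0260). In Treg cocultures it was 0.20 ± 0.09 (SE, adjusted p = 0.226). ENSMUSG00000022443 went the other way in stimulated cells, at -0.25, -1.31, 0.11, -0.74 and -0.34 in mice 1 to 5, below 0 in 4 of 5, and did not pass (edgeR difference -0.54 ± 0.20, SE, adjusted p = 0.193).

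Set beside the genes not kept, the kept mRNAs were slightly less represented in the precipitate. In stimulated cells the mean of mouse medians of log2 IP over Input was 0.05 ± 0.09 for the kept and 0.14 ± 0.05 for the genes not kept (SD, n = 5), and the kept were lower in all 5 mice by 0.02 to 0.16. In Treg cocultures the values were 0.05 ± 0.08 and 0.11 ± 0.05, lower in 4 of 5 mice, and in IL7-rested cells 0.14 ± 0.11 and 0.17 ± 0.04, lower in 3 of 5. Taken within each mouse, kept minus not kept averaged -0.09 ± 0.06 in stimulated and -0.06 ± 0.07 in coculture cells (SD, n = 5). In IL7-rested cells it averaged -0.03 ± 0.09. These are descriptions of 2 chosen groups of genes, with no test. All genes at the level averaged 0.05, 0.03 and 0.04 in IL7-rested, stimulated and coculture cells.

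**Figure D4:**
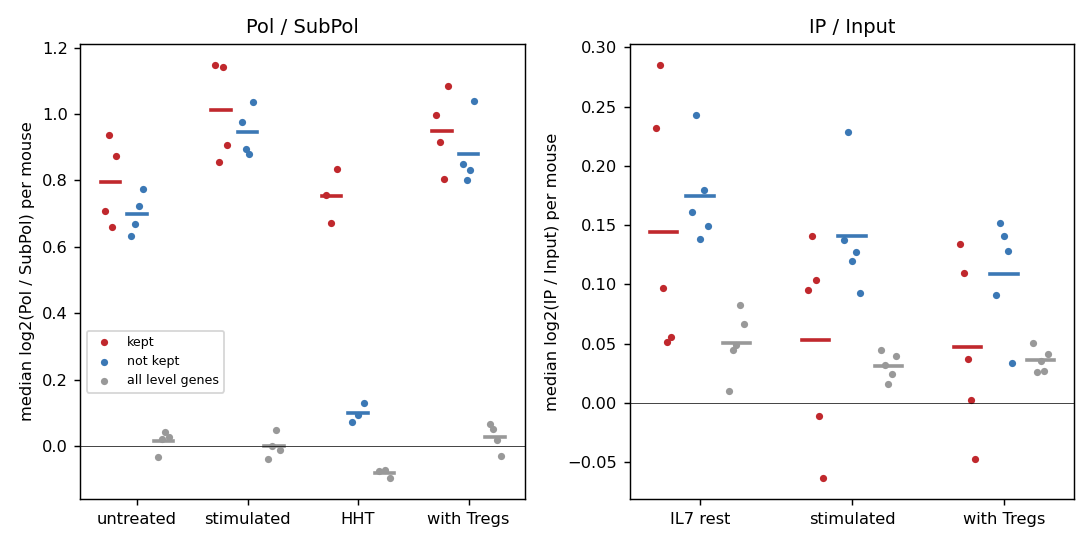
Median log2(Pol/SubPol) in each SPEED mouse (left) and median log2(IP/Input) in each RiboTag mouse (right) over the 34 kept mRNAs (red), the 703 not kept (blue) and all 5682 genes at the level (grey); points are mice and bars their mean. Kept and not kept lie close together in untreated, stimulated and Treg cells and apart under HHT, where the rule separates them, and the axes of the panels differ in scale.

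Total levels of the members, read in Input, moved in both directions on stimulation. In SPEED, 12 members rose and 7 fell between untreated and stimulated cells by edgeR, where 27.9% of all genes tested rose and 26.5% fell. The median change of the members was 0.03, against 0.36 for the genes not kept, of which 370 of 703 rose and 109 fell. In RiboTag, between IL7 rest and stimulation, 13 members rose and 12 fell, where 32% of all genes tested rose and 31.4% fell, with medians of 0.14 for the members and 0.32 for the genes not kept. The members' shares in each direction were thus not far from those of all genes tested.

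These assays share no library, and 10 members rose in both and 6 fell in both, 47.1% of the members, where 50.1% of the 5682 genes at the level were called in 1 direction in both. A single member was called in opposite directions. Its Input CPM was 194, 296, 341 and 334 in untreated and 227, 225, 133 and 158 in stimulated SPEED mice. In RiboTag mice 1 to 5 it was 121, 68.8, 57.0, 49.1 and 62.4 at IL7 rest and 116, 126, 151, 144 and 152 after stimulation. It was lower after stimulation in 3 of 4 SPEED mice and higher in 4 of 5 RiboTag mice. The edgeR changes were -0.66 ± 0.21 (SE, adjusted p = 0.00925) and 0.91 ± 0.17 (SE, adjusted p = 2.69e-05). The resting states of the 2 assays differ, untreated in SPEED and IL7 in RiboTag.

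ENSMUSG00000025203 had the largest rise on stimulation. Its SPEED Input CPM was 41.1, 15.9, 26.1 and 33.0 in untreated mice 1 to 4 and 301, 353, 186 and 221 in stimulated mice. In RiboTag Input it was 17.6, 31.7, 12.6, 11.1 and 22.6 in IL7-rested mice 1 to 5 and 604, 658, 389, 484 and 361 after stimulation. No resting library overlapped a stimulated one in either assay. The edgeR changes were 3.18 ± 0.33 (SE, adjusted p = 1.5e-10, up in 4 of 4 mice) and 4.66 ± 0.32 (SE, adjusted p = 2.2e-13, up in 5 of 5). Its polysome ratio was 0.93, 0.76, 1.2 and 1.07 in stimulated mice and 0.79, 0.75 and 0.87 under HHT. In untreated cells, before the rise, the mice had disagreed and the test was missed, as given above.

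The largest fall in SPEED was that of ENSMUSG00000052331. Its Input CPM was 241, 287, 279.6 and 206 in untreated and 99.8, 85.2, 101 and 135 in stimulated SPEED mice. RiboTag mice 1 to 5 gave 249, 283, 202, 273 and 351 at IL7 rest and 130.2, 144, 82.8, 102 and 125 after stimulation. Again no resting library overlapped a stimulated one. The edgeR changes were nearly the same, -1.28 ± 0.16 (SE, adjusted p = 1.83e-08, down in 4 of 4 mice) and -1.27 ± 0.17 (SE, adjusted p = 1.18e-07, down in 5 of 5). Its polysome ratio was 0.77, 0.84, 0.74 and 0.56 in stimulated and 0.75, 0.60 and 0.81 under HHT, the means 0.73 and 0.72 differing by less than the SD between mice.

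**Figure D5:**
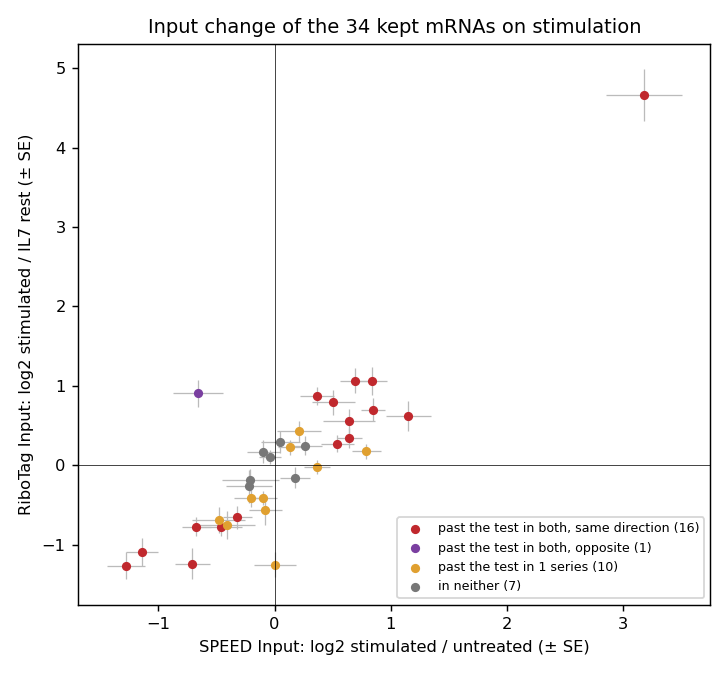
Change in Input on stimulation of the 34 kept mRNAs, as edgeR log2 change ± SE, in SPEED (x axis, against untreated, 4 mice) and RiboTag (y axis, against IL7 rest, 5 mice). Red points (16) passed the test in 1 direction in both, the purple point passed in opposite directions, 10 orange points passed in 1 assay and 7 grey in neither; the point at the upper right is ENSMUSG00000025203.

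HHT itself was compared with stimulation alone in Input of mice 1 and 3 against 4 stimulated mice. By edgeR 0 of 34 members passed in either direction, where 0.105% of all genes tested rose and 0% fell. At an unadjusted p under 0.05 there were 7 members (20.6%), all of them higher, against 8.25% of all genes tested and 11.3% of the genes at the level. DESeq2 called 1, and the fit with the later HHT Input library called 1. The members' differences ran from -0.23 to 0.60 with a median of 0.17, positive in 26 of 34, against a median of 0.04 for the genes not kept and -0.04 for all genes at the level. The Input share of the members was 0.675 ± 0.046% when stimulated (SD, n = 4) and 0.755 ± 0.067% under HHT (SD, n = 2), ranges that overlapped. This comparison shares the stimulated mice with the rule but not its libraries.

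Few members, and few of all genes tested, differed in Input level when Tregs were present. In SPEED 1 member was higher in cocultures than in stimulated cells and 0 were lower by edgeR, where 0.459% of all genes tested were higher and 0.129% lower. In RiboTag 1 was higher and 1 lower, against 2.76% and 1.77% of all genes. The higher member was ENSMUSG00000022443 in both assays, and the lower one ENSMUSG00000025203. At an unadjusted edgeR p under 0.05 there were 20.6% of the members in SPEED and 17.6% in RiboTag. The genes at the level had 21.0% and 21.5%, so the count is not particular to the members.

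ENSMUSG00000022443 had an Input CPM of 385, 507, 413 and 448 in untreated, 266, 285, 222 and 310.3 in stimulated, and 439, 507, 443 and 439 in coculture SPEED mice. In RiboTag mice 1 to 5 it was 245, 268, 239, 396 and 386 at IL7 rest, 127, 225, 78.9, 127 and 114 after stimulation, and 184, 315, 231, 219 and 220.2 with Tregs. In SPEED every stimulated library lay below every untreated and coculture one; in RiboTag stimulated mouse 2 lay within the range of the cocultures. It fell on stimulation by 0.71 ± 0.15 on the log2 scale in SPEED (SE, edgeR adjusted p = 0.000103) and by 1.24 ± 0.20 in RiboTag (SE, edgeR adjusted p = 1.94e-06). With Tregs it was higher by 0.73 ± 0.15 (SE, adjusted p = 0.0105, 4 of 4 mice) and 0.78 ± 0.19 (SE, adjusted p = 0.0151, 5 of 5 mice). Both comparisons share the stimulated libraries within an assay. The Treg call was lost without mouse 1, 2 or 3 in SPEED (adjusted p up to 0.141) and without mouse 3, 4 or 5 in RiboTag (adjusted p up to 0.100), at log2 differences of 0.64 or more. Treg RNA in the coculture Input is a part that was not tested.

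ENSMUSG00000025203 fell with Tregs in RiboTag, from 604, 658, 389, 484 and 361 CPM to 206, 328, 198, 316 and 194 in mice 1 to 5, lower in 5 of 5 mice with no overlap. The edgeR change was -1.03 ± 0.26 (SE, adjusted p = 0.0149). The call was lost in 3 of 10 alternative fits, among them the one without mouse 1, at -0.89 (adjusted p = 0.126). In SPEED its CPM was 309.6, 238, 174 and 166 in cocultures, lower than the stimulated library in 3 of 4 mice, with a change of -0.28 ± 0.29 (SE, adjusted p = 0.712). Whether the Treg change differed between the assays was not tested. ENSMUSG00000052331, which fell on stimulation, was at 154, 172, 149 and 159 in SPEED cocultures, above its stimulated level in 4 of 4 mice, with a difference of 0.57 ± 0.16 (SE, adjusted p = 0.0883). DESeq2 called it (adjusted p = 0.0330). In RiboTag it was higher with Tregs in 3 of 5 mice, with a difference of 0.21 ± 0.17 (SE, edgeR adjusted p = 0.575).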

How the data were processed

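The authors deposited whole-number counts of reads per gene, 1 table per assay, not normalized. Per the submitters' processing notes SAMtools 1.2, FastQC 0.11.3, Picard 1.134 and HTSeq 0.4.1 were run, on build GRCm38. No aligner is named in the sources used here. The SMART-Seq v4 libraries carry no strand information, and reads of a gene and an antisense partner cannot be separated. A further 16 RiboTag columns match no sample and were not used. Of a pair of HHT Input libraries with the same title and mouse, the later was left out except in 1 alternative. In the order of the samples it directly follows the Input libraries of mouse 2. Whether it came from mouse 1, as labelled, was not tested.

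CPM used each library's total; ratios outside the rule had 0.5 CPM added. Tests used edgeR 4.0.16 in R 4.3.3 on the counts: filterByExpr, TMM, a robust quasi-likelihood fit to every group of the assay at once, without a block, two-sided, Benjamini-Hochberg over all genes tested, adjusted p under 0.05. SE is the absolute log2 change over the square root of F, and 95% intervals are 1.96 SE. The fits were run on simulated counts with planted changes of a single size. Those libraries were drawn without a mouse effect, so the pairing by mouse and smaller changes were not checked. DESeq2 1.42.0 was an alternative. Replicates are separate mice, and the labels give the same mouse for same-numbered samples of an assay, so the numbers pair them.

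The members, lists and comparisons were chosen with earlier results of these data known. Named genes were to be members highest under HHT, nearest the threshold, in fixed lists, or with the largest changes in each test. Without names the lists, markers and protein lengths could not be used. The 4 identifiers are the highest HHT ratio, the largest rise and fall in SPEED Input, and a member chosen after its values were seen because it passed the Treg test in both assays.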

Additional observations from a re-analysis of the deposited data

Results flagged for a closer look

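Among 81 groups of 4 or 5 values examined (mouse medians and count shares of the kept mRNAs, and CPM of the 4 printed members), 6 had a library far from the others of its group by Dixon's test; chance flags about 1 in 20 groups. ENSMUSG00000033499 was at 122 CPM in the untreated SubPol library of mouse 1, against 97.8 to 99.9 in the other mice. The same gene was at 131 CPM in the coculture SubPol library of mouse 3, against 87.8 to 94.8. In coculture Input of mouse 2 it was at 224 CPM, against 192 to 193. ENSMUSG00000022443 was at 507 CPM in that same library, against 439 to 443. In the IL7-rested IP of mouse 3 it was at 232.1 CPM, against 313 to 333. ENSMUSG00000052331 was at 170.2 CPM in the coculture Pol library of mouse 3, against 137 to 141.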

How the results depend on the processing

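The size of the set depended on the rule. It was 203 genes at a ratio of 0.25, 0 at a ratio of 1, 19 at 60 CPM, 151 on means over mice, 85 on TMM library sizes and 37 to 73 without 1 mouse; each larger set held the 34, and TMM raised the ratios by 0.10 (HHT) to 0.18 (stimulated) on the log2 scale. The percent of members past the test stayed within 1.5 times under every alternative run for Pol over SubPol in untreated cells (without 1 mouse 88.2 to 94.1) and in cocultures (94.1 to 100), and for Input on stimulation in SPEED (41.2 to 52.9) and RiboTag (61.8 to 76.5). Fits with the replicate block, the mouse, moved 2 counts: the interaction and IP over Input in cocultures each went from 0 to 2.94%; the block changed no other count by over 1.5 times. DESeq2 gave 2.94% for Input under HHT, 8.82% for SPEED Input with Tregs and 2.94% for IP over Input in cocultures; the later HHT Input library gave 2.94%. Fitting the compared groups alone gave 5.88% for SPEED Input with Tregs, 2.94% for IP over Input in cocultures and 0% in stimulated cells. No filter gave 0% for IP over Input in stimulated cells and for RiboTag Input with Tregs. The 203 genes gave 3.94% in the interaction, 0.985% for SPEED Input with Tregs, and 1.48% and 3.45% for IP over Input in stimulated and coculture cells. The 19 genes gave 5.26% for SPEED Input with Tregs, 5.26% for IP over Input in stimulated cells and 10.5% for RiboTag Input with Tregs. Without 1 mouse, SPEED Input with Tregs ranged from 0 to 5.88%, RiboTag Input with Tregs from 2.94 to 5.88%, IP over Input from 5.88 to 14.7% in IL7-rested cells and 0 to 0% in stimulated cells. Mice 3 to 5 alone, added after seeing the data, gave 17.6% and 0% in the latter 2. The cause was not tested. Leaving out mouse 1 or 3 leaves 1 HHT Input library, which is assumed to vary like the other groups.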
